A study of Homo sapiens and Mus musculus with 19 samples.

Results

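The transcripts followed here encode ligands that activate natural killer (NK) cells, namely MICA, MICB, ULBP1, ULBP2, ULBP3 and PVR. A human probe set was taken where its annotation names 1 of these symbols and no other gene, and the brightest such probe set, by mean log2 signal over the human arrays, stood for the gene. All 6 genes were found among the 19775 human genes with such a probe set. Among 18194 mouse genes, 2 ligand genes had one, Pvr with 7 probe sets and Ulbp1 with 1. No mouse probe set names a single Raet1 gene, and 1 names both Raet1e and Raet1d.

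The study put retroviral vectors into lung cancer cells to raise or block NF-kB signalling, and RNA was hybridised to single-colour Affymetrix arrays. Cells labelled IKKb carried the MiG vector with an activated IKKβ, in which serines 177 and 181 are replaced by glutamate. Cells labelled IkB_SR carried MiG with a super-repressor IkBα, in which serines 32 and 36 are replaced by alanine. Control cells carried MiG alone, and every culture was sorted on green fluorescent protein (GFP), so controls are transduced and sorted cells too. The 5 human non-small cell lung cancer lines were PC9, HCC827, H358, H23 and A549, with 1 array for each of the 3 vectors, 15 in all. Lewis lung carcinoma cells of the mouse (LLC) had 2 arrays with IKKb and 2 with MiG, and all 4 carry the label kB OVA, which the labels do not explain. The cells are sorted populations that express a mutant protein from a virus for an unstated time, with no NK cells in the cultures as far as the labels say.

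NKG2D is an activating receptor of NK cells and of some T cells. Its human ligands are the MHC class I-like proteins MICA and MICB, encoded in the MHC, and the ULBP family, most of which sit on the membrane by a lipid anchor. Healthy cells usually show little of them, and heat shock, DNA damage and transformation can bring them up. PVR (CD155), a nectin-like adhesion molecule, is a ligand of the activating receptor DNAM-1 (CD226) and also of the inhibitory receptors TIGIT and CD96. The mouse has no MICA or MICB, and its NKG2D ligands are the Raet1, H60 and Ulbp1 (MULT1) families.

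The windows around the start sites of MICA, MICB and ULBP1 are shown because MICA and MICB are close copies that differed in their order across the lines, and because ULBP1 had the largest fitted difference of the 5 tested ligands between IKKb and IkB_SR. Each window holds 250 bases before and 50 bases after 1 start site per gene on the + strand, from RefSeq on GRCh38.p14: MICA at chr6:31403345-31403644, MICB at chr6:31497895-31498194 and ULBP1 at chr6:149963693-149963992. RefSeq begins the MICA and MICB genes upstream of these windows, at 31400711 and 31494918, and other start sites of the ligands were not searched. Capitals mark GAANNTTC (the core of a heat shock element), GGGCGG on either strand (a GC box) and the NF-kB consensus.
MICA: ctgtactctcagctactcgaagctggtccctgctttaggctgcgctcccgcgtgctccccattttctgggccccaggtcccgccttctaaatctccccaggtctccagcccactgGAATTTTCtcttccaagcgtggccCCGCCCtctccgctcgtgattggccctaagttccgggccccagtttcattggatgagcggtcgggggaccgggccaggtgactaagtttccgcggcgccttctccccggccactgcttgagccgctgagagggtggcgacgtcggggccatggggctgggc
MICB: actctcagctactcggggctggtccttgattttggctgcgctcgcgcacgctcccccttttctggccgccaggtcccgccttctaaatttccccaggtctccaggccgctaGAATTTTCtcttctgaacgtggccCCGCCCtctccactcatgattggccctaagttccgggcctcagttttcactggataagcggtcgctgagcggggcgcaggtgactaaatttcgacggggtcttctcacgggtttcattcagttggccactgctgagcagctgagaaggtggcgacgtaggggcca
ULBP1: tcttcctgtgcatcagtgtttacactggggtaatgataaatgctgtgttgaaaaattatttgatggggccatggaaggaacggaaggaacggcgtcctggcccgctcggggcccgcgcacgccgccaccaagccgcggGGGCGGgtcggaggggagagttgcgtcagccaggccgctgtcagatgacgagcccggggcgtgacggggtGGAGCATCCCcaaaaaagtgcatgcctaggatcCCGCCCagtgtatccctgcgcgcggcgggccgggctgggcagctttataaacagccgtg
Aligned end to end, the MICA and MICB windows were identical at 246 of 316 columns (77.8%), while the other pairs among the 6 ligands lay between 41.3% and 49.1%. GAANNTTC began at position -135 in MICA and -139 in MICB, counted from the start site, and a GC box at -111 in MICA and -115 in MICB. Of 35116 windows of this length, 6.77% hold GAANNTTC and 45% hold GGGCGG on either strand. The NF-kB consensus, present in 11.3% of all windows, was found in ULBP1 at -42 and in ULBP3 at -117, where it overlaps 1 of 6 GC boxes. It was not found in the windows of MICA, MICB, ULBP2 and PVR. CCAAT (34.6% of all windows) occurred at 2 places in MICA and 1 in MICB and ULBP2, TATAAA (11.5%) in ULBP1 after the start site, and TGANTCA (7.71%) in ULBP2 and ULBP3. None of these 6 motifs was in the PVR window, whose GC content was 67.3% against a median of 58.7% over all windows. A match is a run of letters and not a measured site, and binding was not measured in these samples.

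Levels are given as the MAS5 signal, for which the authors set every array to a trimmed mean of 500. Their 40th percentile, used below as a mark for dim signals, lay between 28.7 and 45.0 on the human arrays. Log2 differences are of the signal plus 16, fitted with limma over all genes with a block for each cell line, and are given with their standard error (SE). Of 6 epithelial genes KRT8, KRT18, EPCAM and CDH1 were above the 40th percentile on 15 of 15 human arrays, KRT7 on 14 and KRT19 on 12. The summed signal of 14 NK and leukocyte markers ran from 309 to 698 with IKKb, 391 to 715 with IkB_SR and 316 to 769 with MiG. CD226, TIGIT, CD96, NCR3 and NKG7 were above the 40th percentile on 0 arrays and PTPRC and GNLY on 1 each, while PRF1 was above it on 15, CD2 on 12, HCST on 11, CD14 on 10, CD3E on 7, KLRD1 on 6 and NCR1 on 4. The summed signal of 8 fibroblast and endothelial markers ran from 986 to 3059 with IKKb, 961 to 3184 with IkB_SR and 1124.5 to 3124 with MiG. COL1A1 and PECAM1 were above the 40th percentile on 15 arrays, DCN on 14, LUM on 12, COL1A2 and CDH5 on 7 each, COL3A1 on 4 and VWF on 0. The part of such signals in the ligand values was not tested. NFKBIA, which encodes IkBα, stood above MiG on 4 of the 5 IkB_SR arrays, and on the array labelled H23 IkB_SR it was at 0.782 of MiG. Of 3 probe sets for IKBKB, the gene of IKKβ, 1 was at 1.43-fold to 4.02-fold of MiG with IKKb, and the others ran from 0.794 to 1.03 and from 0.689 to 1.35. The H358 IKKb array stood apart from the H358 IkB_SR and MiG arrays in the Dap spike-in signal (4376 against 1103 and 1128) and in the 3′ to 5′ ratio of actin (1.74 against 1.38 and 1.41). The PC9 arrays also differed in Dap, at 4354 with IKKb and 4047 with IkB_SR, against 2376 with MiG. All A549 arrays were low in Dap, at 161 with IKKb, 154 with IkB_SR and 159 with MiG, against 1103 or more on every other human array. The part of this in the A549 ligand levels was not tested. The NF-kB genes RELB, NFKB2, TNFAIP3 and ICAM1 all passed the adjusted threshold as higher with IKKb than with IkB_SR, each in 5 of 5 lines. Between IkB_SR and MiG their log2 differences in H23 were -1.03, -1.24, -1.60 and -1.30, in that order. In H358 they were -0.11, 0.30, -1.04 and 0.19, and in A549, HCC827 and PC9 all were below 0. The number of arrays limits the precision, and in these populations fewer cells with a transcript and less of it per cell cannot be told apart.

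MICA, a stress-induced NKG2D ligand, kept the same order of lines whichever vector was present, apart from H23 and HCC827. In A549 its signal was 1188 with IKKb, 1193 with IkB_SR and 1218 with MiG. In H358 it was 761 with IKKb, 879.6 with IkB_SR and 1018 with MiG. These were the brightest lines, and their ranges did not overlap each other or those of the rest. In H23 the MICA signal was 607 with IKKb, 503 with IkB_SR and 546 with MiG. In HCC827 it was 547 with IKKb, 515 with IkB_SR and 514 with MiG, and in PC9 410.03 with IKKb, 412 with IkB_SR and 461 with MiG. H23 and HCC827 overlapped, and PC9 lay below all other lines. The mean signal was 1200 ± 16.1 in A549 and 428 ± 28.9 in PC9 (SD, n = 3 arrays), a fold of 2.74 on the scale of signal plus 16. On the log2 scale the SD between line means was 0.60 and that within lines 0.12. A probe set that names both MICA and MICB had the same highest and lowest lines, with 783 ± 51.2 in A549 and 267 ± 25.8 in PC9 (SD, n = 3).

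MICB, the paralog of MICA, split the lines differently, with A549 far below the rest. Its A549 signal was 856 with IKKb, 529 with IkB_SR and 534 with MiG. In H23 it was 3224 with IKKb, 2566 with IkB_SR and 2660.3 with MiG, and in H358 3074 with IKKb, 3798 with IkB_SR and 3769 with MiG. In HCC827 it was 4644 with IKKb, 3504 with IkB_SR and 3692 with MiG, and in PC9 3452 with IKKb, 2701 with IkB_SR and 3661 with MiG. No A549 array reached any array of another line, and the other 4 lines overlapped their neighbours in the order HCC827, H358, PC9, H23. The A549 mean was 639.99 ± 187 and the HCC827 mean 3947 ± 612 (SD, n = 3), and H23, next above A549, was 4.41-fold higher than it. Over the 15 arrays MICA and MICB had a Pearson correlation of -0.71, which describes 5 lines measured 3 times each. With A549 left out the line test of MICB gave F = 4.12 (limma, adjusted p = 0.0424) in place of 94.8 (adjusted p = 5.57e-09).

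ULBP2, a lipid-anchored NKG2D ligand, had the largest F value among lines of the 5 tested ligands. In HCC827 its brightest probe set read 3006 with IKKb, 2425 with IkB_SR and 2372 with MiG. In H358 it read 1580.3 with IKKb, 1626 with IkB_SR and 1466 with MiG. Those lines stood above the others without overlap. In PC9 ULBP2 read 557 with IKKb, 456 with IkB_SR and 475 with MiG. In H23 it read 399 with IKKb, 480.4 with IkB_SR and 409 with MiG, and in A549 340.5 with IKKb, 333 with IkB_SR and 315 with MiG. PC9 and H23 overlapped, and A549 was lowest, 7.53-fold below HCC827. The second, dimmer ULBP2 probe set also had HCC827 highest, at 388 ± 86.5 (SD, n = 3), but it put A549 next, at 291 ± 73.7, and PC9 last, at 90.9 ± 46.3. The probe sets therefore share the top line and not the rest of the order.

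ULBP1 and ULBP3, further NKG2D ligands of the same family, were dim. In A549 the ULBP1 signal was 59.8 with IKKb, 52.0 with IkB_SR and 49.0 with MiG. In H23 it was 54.3 with IKKb, 133 with IkB_SR and 69.2 with MiG. In H358 it was 31.6 with IKKb, 38.9 with IkB_SR and 28.2 with MiG. The H23 IkB_SR array was the highest of the 15, and it is the array whose NFKBIA signal was below that with MiG. On that array RELB, NFKB2, TNFAIP3 and ICAM1 were also lower than with MiG. In HCC827 ULBP1 was 6.42 with IKKb, 58.4 with IkB_SR and 34.0 with MiG, and in PC9 7.88 with IKKb, 48.9 with IkB_SR and 28.6 with MiG. ULBP1 was above the 40th percentile on 10 arrays, of which 2 were IKKb, 5 IkB_SR and 3 MiG. ULBP3 was above it on 1 array, H23 IkB_SR at 53.7. Its other signals ran from 3.54 to 23.6 with IKKb, from 5.23 to 35.5 with IkB_SR and from 5.09 to 20.9 with MiG. ULBP3 did not pass the filter and was not tested with the others.

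PVR, the DNAM-1 ligand, had its highest mean on the brightest probe set in HCC827, with 2279 with IKKb, 2000 with IkB_SR and 1803 with MiG. In PC9 this probe set read 2577 with IKKb, 2085 with IkB_SR and 1229 with MiG, and in A549 1513 with IKKb, 1854 with IkB_SR and 1949 with MiG. These lines overlapped one another. In H358 PVR read 1303 with IKKb, 875 with IkB_SR and 1063 with MiG, and in H23 588 with IKKb, 652 with IkB_SR and 789.7 with MiG. H358 lay below HCC827 and A549 without overlap but overlapped PC9, where the MiG array at 1229 was below the H358 IKKb array at 1303. H23 lay below all other lines. PC9 had the widest spread within a line, 1964 ± 683 (SD, n = 3).

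**Figure D1:**
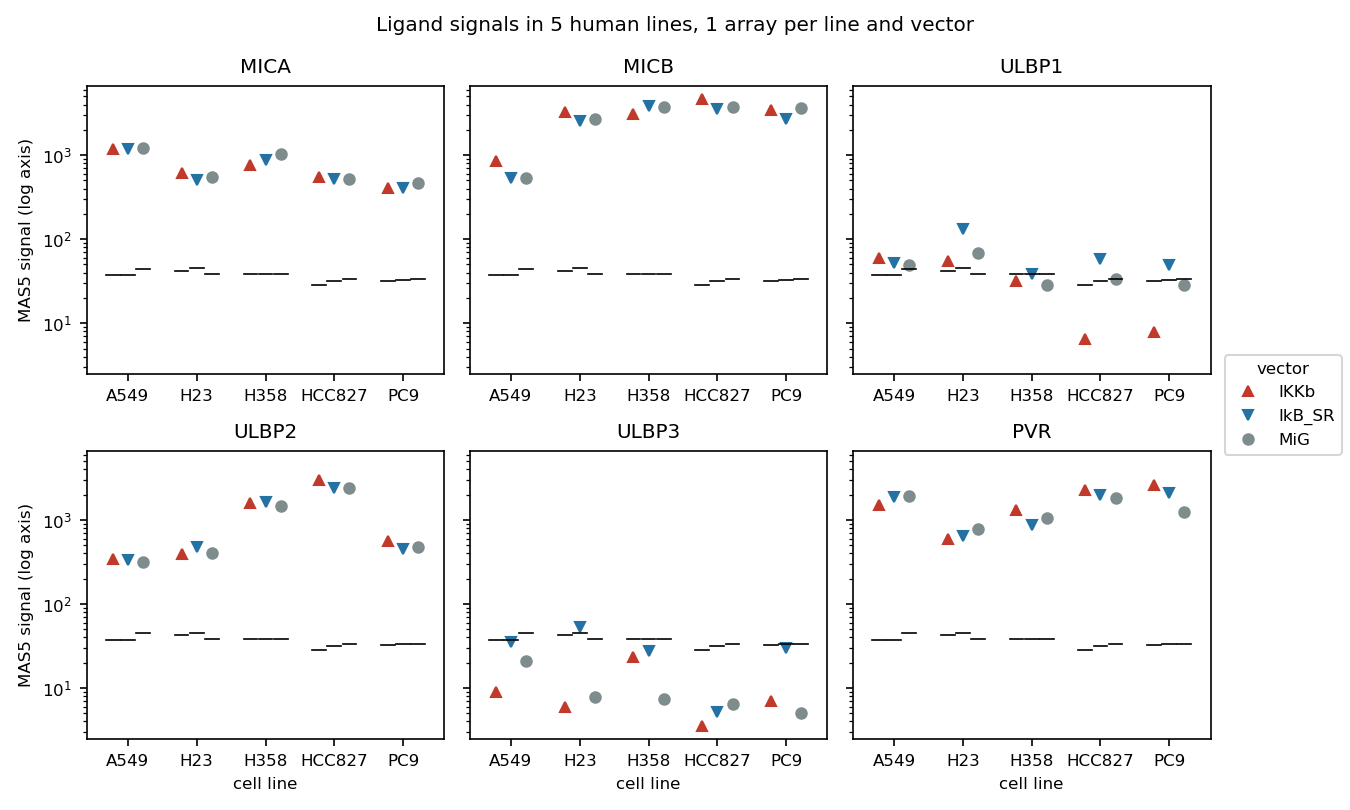
MAS5 signal (log axis) of the brightest probe set of each ligand, by cell line, with 1 point per array and the vectors side by side; short bars mark the 40th percentile of each array. MICB is low in A549 with every vector (529 to 856), ULBP2 is high in H358 and HCC827, and most ULBP3 points lie below the bars.

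The 7 PVR probe sets did not give the same order of lines. The probe sets 32699_s_at, 214443_at, 214444_s_at and 216283_s_at all had A549 highest, by 3.32-fold to 6.56-fold over the next line. On 32699_s_at the A549 signal was 1080 with IKKb, 1323 with IkB_SR and 664 with MiG, and in the other 4 lines signals lay between 123 and 231. The 214443_at signal in A549 was 1249 with IKKb, 1294 with IkB_SR and 829.5 with MiG. In A549 each of these 4 probe sets was thus higher with IKKb and with IkB_SR than with the single MiG array. The brightest probe set, 212662_at, ran the other way there, at 0.776 of MiG with IKKb and 0.951 with IkB_SR. 1556582_at had A549 highest too, by 1.52-fold over H358, while 239918_at was above the 40th percentile on 9 arrays only and its line test gave an adjusted p of 0.276 (limma over every probe set). In PC9 the 2.10-fold higher signal with IKKb than with MiG on 212662_at went with 1.07-fold on 32699_s_at, 0.781 on 214443_at and 0.675 on 216283_s_at. The files do not say which transcripts each probe set reads, and the order of the lines for PVR depended on the probe set chosen.

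**Figure D2:**
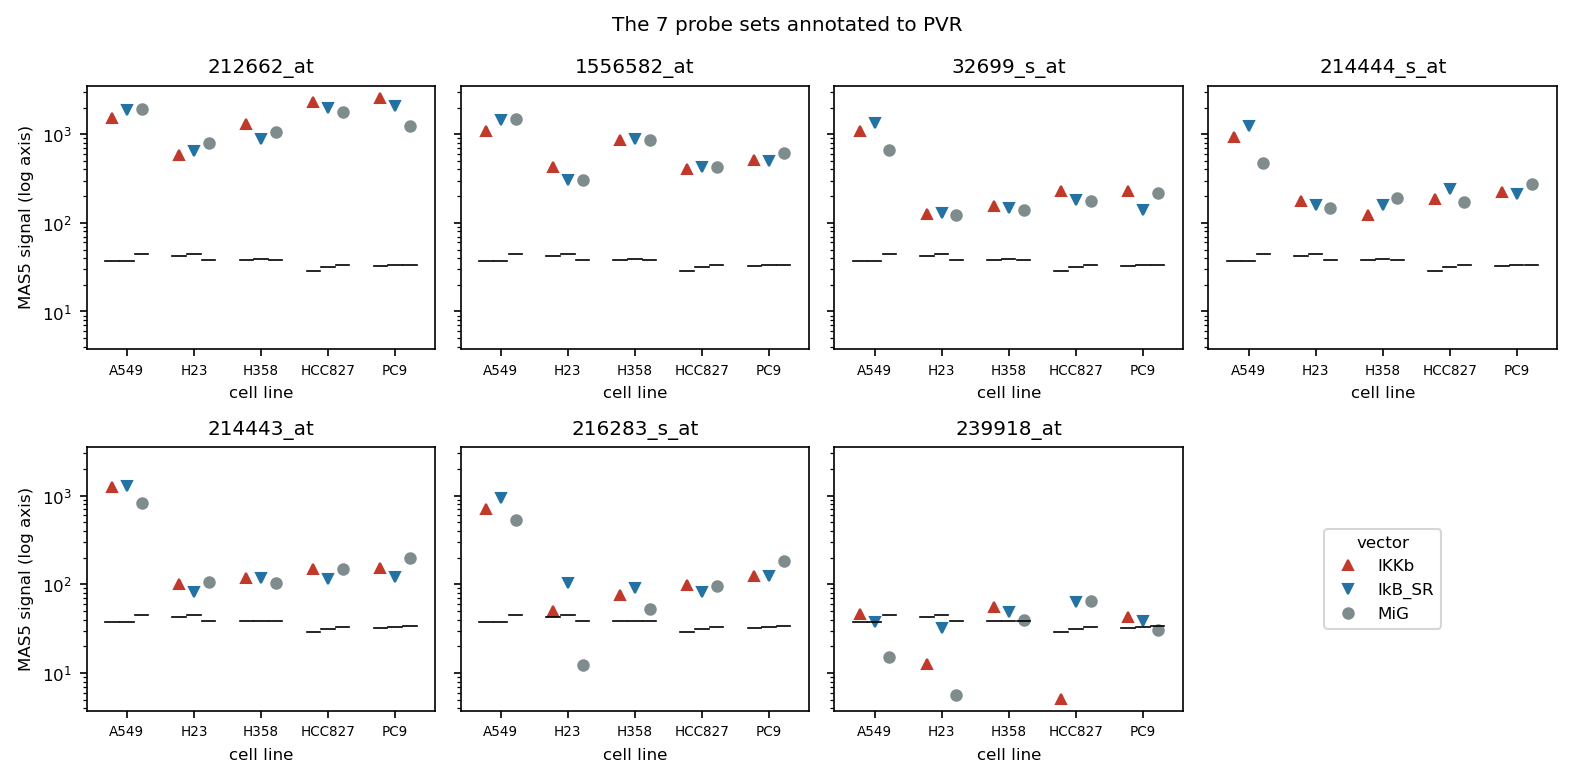
MAS5 signal (log axis) of each of the 7 PVR probe sets by cell line and vector, 1 point per array, with short bars at the 40th percentile of each array. A549 stands above the other lines on 32699_s_at, 214444_s_at, 214443_at, 216283_s_at and, by less, 1556582_at, but not on 212662_at or 239918_at.

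All 5 tested ligands differed among the lines (limma F-test, Benjamini-Hochberg over 15212 genes), against a background of 86.7% of all genes tested, so the count does not set the ligands apart. F was 226 for ULBP2 (adjusted p = 6.86e-11), 94.8 for MICB (5.57e-09), 47.1 for MICA (2.18e-07), 18.3 for PVR (3.50e-05) and 4.47 for ULBP1 (0.0188). The spread in this test is that of arrays of different vectors within a line. The ULBP1 call was lost with quantile normalisation (adjusted p = 0.0501), without the H23 arrays (0.247) and without the H23 IkB_SR array (0.0783). The log2 SD between line means of ULBP1, 0.52, was also smaller than its SD within lines, 0.58. For ULBP2 those values were 1.27 and 0.13, for MICB 1.09 and 0.25, and for PVR 0.67 and 0.31.

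For each tested ligand, the 3 genes with the most similar log2 signal over the 15 arrays were taken from all genes tested. For MICA they were CDS2 (Pearson r = 0.98), CCDC25 (0.97) and PLA2G4A (0.97), and for MICB HK2 (0.98), ZNF256 (0.97) and CNKSR1 (0.97). For ULBP2 they were DTNA (0.98), ZIK1 (0.98) and BLZF1 (0.98), and for PVR PPP1CB (0.94), AP2M1 (0.93) and HACD3 (0.92). For ULBP1 they were FOS (0.87), DLK1 (0.87) and CBFA2T3 (0.86). These values describe likeness over 5 lines with 3 arrays each, and arrays of a line share its genome. Between the ligands themselves r ran from -0.71 (MICA and MICB) to 0.64 (MICB and ULBP2).

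IKKb was compared with IkB_SR to ask whether the ligands follow NF-kB activity. Of the 5 tested ligands 0 passed the adjusted threshold of 0.05, against 0.933% of all genes tested (142 of 15212). At an unadjusted p below 0.05 there were 2 of 5, MICB and ULBP1, against 14.2% of all genes. Ligands higher with IKKb in 5 of 5 lines numbered 0 (4.51% of all genes), and so did ligands lower in 5 of 5 lines (5.73%). The median log2 difference of the 5 was 0.06, against -0.01 over all genes tested.

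MICB was the higher of these with IKKb. Its 5 IKKb signals (856 to 4644) and 5 IkB_SR signals (529 to 3798) overlapped as groups because the lines differ. Within lines MICB stood at 1.62-fold in A549, 1.26-fold in H23, 1.33-fold in HCC827 and 1.28-fold in PC9, and at 0.81 in H358. The fitted log2 difference was 0.29 ± 0.12 (95% interval 0.03 to 0.55, limma adjusted p = 0.305). The line that ran the other way is the one whose IKKb array stood apart, and without that array the difference was 0.43 ± 0.10 (limma adjusted p = 0.0691). With all of H358 left out it was 0.44 ± 0.10 (adjusted p = 0.0811). Leaving out the only line below 0 raises the mean in any case. Without A549, the line with the largest rise, the MICB difference was 0.20 ± 0.12 (limma adjusted p = 0.479).

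ULBP1 was the lower of these with IKKb. Its signal was 0.11 of that with IkB_SR in HCC827, 0.161 in PC9, 0.409 in H23 and 0.811 in H358, and 1.15 in A549. The log2 difference was -0.86 ± 0.27 (95% interval -1.44 to -0.29, limma adjusted p = 0.165), lower in 4 of 5 lines, and it was -0.79 ± 0.30 without the H23 IkB_SR array (limma adjusted p = 0.292). The IKKb signals behind it lay below the 40th percentile in H358, HCC827 and PC9, where MAS5 values are noisy. Its size followed the constant added before the logarithm, at -1.37 with 1 and -0.44 with 64. ULBP3, fitted only when the filter was dropped, lay at -0.79 ± 0.25 (limma adjusted p = 0.208), again from signals near or below the 40th percentile.

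For MICA, ULBP2 and PVR the 95% intervals between IKKb and IkB_SR, which are not adjusted for the number of genes, held 0. MICA lay at log2 0.03 ± 0.10 (95% interval -0.18 to 0.23, limma adjusted p = 0.938), higher in 2 of 5 lines. ULBP2 lay at 0.06 ± 0.09 (-0.13 to 0.26, limma adjusted p = 0.815), higher in 3 lines. PVR lay at 0.12 ± 0.17 (-0.24 to 0.49, limma adjusted p = 0.805), higher in 3 lines, with H358 at 1.49-fold and A549 at 0.816. For MICA the interval covers folds from 0.884 to 1.17, and for ULBP2 from 0.911 to 1.20. A mean change of 1.5-fold over the lines, as read by these probe sets, lies outside both, but the intervals do not bound single lines. On the dimmer ULBP2 probe set, 221291_at, the IKKb signal was 2.91-fold that with IkB_SR in PC9. It was between 0.662 and 0.795 of it in the other lines, with a fitted log2 difference of -0.09 ± 0.22.

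**Figure D3:**
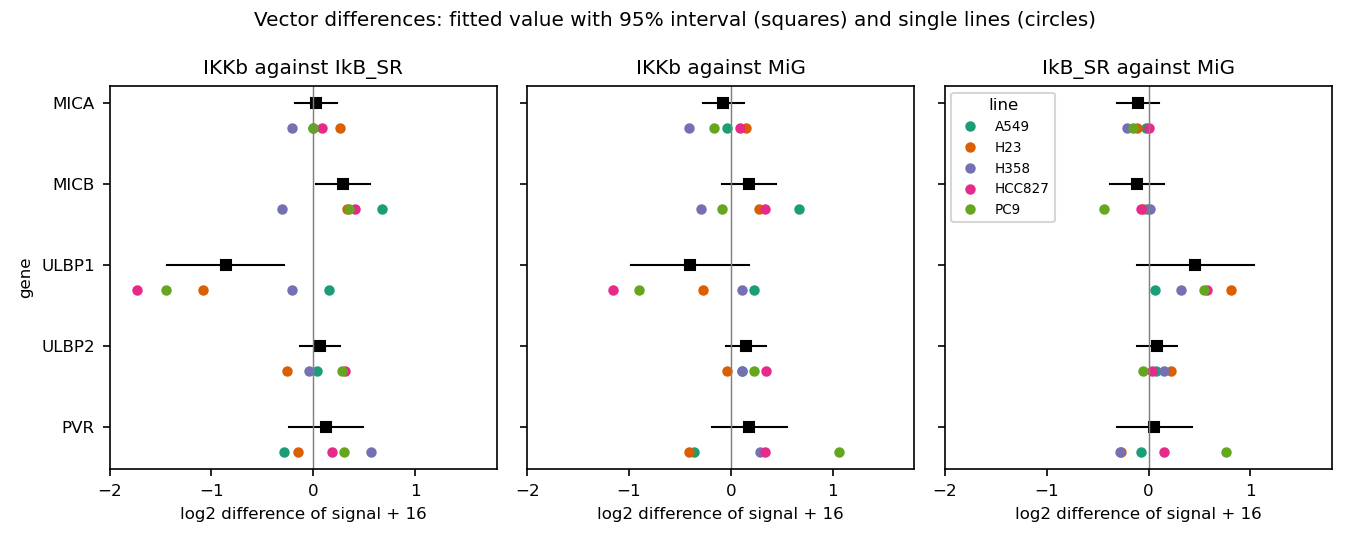
Log2 difference of signal plus 16 for the 5 tested ligands in the 3 vector comparisons; squares are the limma estimates with 95% intervals and circles are the single lines. The ULBP1 estimate is -0.86 between IKKb and IkB_SR with lines from -1.73 to 0.16, and the intervals of MICA, ULBP2 and PVR span 0 in each comparison.

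Each of these vectors was also compared with MiG. Both comparisons use the same 5 MiG arrays, so they are not independent of each other, and their difference is the comparison above. Between IKKb and MiG 0 of 5 ligands passed, against 0% of all genes (0 of 15212). At an unadjusted p below 0.05 there were 0 of 5, against 5.52% of all genes (839). MICB lay at log2 0.18 ± 0.12 (95% interval -0.08 to 0.44), with A549 at 1.60-fold, H23 at 1.21-fold, HCC827 at 1.26-fold, PC9 at 0.943 and H358 at 0.816. ULBP1 lay at -0.40 ± 0.27 (-0.98 to 0.17), with HCC827 at 0.189, PC9 at 0.276, H23 at 0.785, H358 at 1.12 and A549 at 1.22. ULBP2 lay at 0.15 ± 0.09 (-0.05 to 0.35), PVR at 0.18 ± 0.17 (-0.19 to 0.55) and MICA at -0.07 ± 0.10 (-0.28 to 0.13). The limma adjusted p of the 5 ligands ran from 0.908 to 0.954. No ligand was higher in 5 of 5 lines (3.29% of all genes) or lower in 5 of 5 (4.83%). Without PC9, whose MiG array differed in Dap, the PVR value was -0.038.

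Between IkB_SR and MiG 0 of 5 ligands passed, against 0% of all genes (0 of 15212). At an unadjusted p below 0.05 there were 0 of 5, against 4.44% of all genes (675). ULBP1 was higher with IkB_SR in 5 of 5 lines, as were 4.04% of all genes, at 1.92-fold in H23, 1.72-fold in HCC827, 1.71-fold in PC9, 1.38-fold in H358 and 1.06-fold in A549. No ligand was lower in 5 of 5 lines (3.71% of all genes). The fitted log2 difference of ULBP1 was 0.46 ± 0.27 (95% interval -0.12 to 1.04), and 0.39 ± 0.30 without the H23 IkB_SR array. MICA lay at -0.10 ± 0.10 (-0.31 to 0.10), MICB at -0.11 ± 0.12 (-0.38 to 0.15), ULBP2 at 0.08 ± 0.09 (-0.11 to 0.28) and PVR at 0.06 ± 0.17 (-0.31 to 0.42). For MICB 4 lines lay between 0.949 and 1.01 of MiG and PC9 at 0.738. The limma adjusted p of the 5 ligands ran from 0.995 to 0.997. Set side by side, MICA and MICB differed by less than 1.5-fold in every line between IkB_SR and MiG. On its brightest probe set PVR did so in every line but PC9, at 1.70-fold. Other PVR probe sets differed: 32699_s_at was at 1.99-fold in A549 and 0.652 in PC9, and 214444_s_at at 2.62-fold and 0.759. Without PC9 the fitted PVR value on the brightest probe set was -0.12 between these vectors.

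Genes around NK-cell recognition were described by 7 lists, with the ligands themselves as 1 of them. Between IKKb and IkB_SR, 93 genes were higher (0.611%) and 49 lower (0.322%) of all genes tested. Among 12 tested ligands of other activating or adhesion receptors, 1 was higher and 0 lower. It was ICAM1, a ligand of the leukocyte integrin LFA-1, at log2 2.26 ± 0.28 (limma adjusted p = 0.00207, 5 of 5 lines). The list's median was 0.25, against -0.01 over all genes tested. ICAM2 and NCR3LG1 did not pass and were picked out after their values were seen. ICAM2 lay at log2 0.80 ± 0.21 (limma adjusted p = 0.0946), higher in 5 of 5 lines. NCR3LG1 (B7-H6) is a ligand of the activating receptor NKp30. Its signal with IKKb was 381 in H23, 194 in A549, 161 in PC9, 100.3 in H358 and 59.1 in HCC827. With IkB_SR it was 261 in H23, 119 in A549, 132 in PC9, 55.2 in H358 and 4.01 in HCC827, below that with IKKb in every line. The log2 difference of NCR3LG1 was 0.81 ± 0.21 (limma adjusted p = 0.0948), and 0.53 ± 0.16 without HCC827 (0.238). The HCC827 signals with IkB_SR (4.01) and MiG (19.9) were dim, against 40th percentile marks of 31.6 and 33.1. Against MiG the difference was 0.29 ± 0.21 with IKKb (limma adjusted p = 0.917), higher in 4 of 5 lines. It was -0.52 ± 0.21 with IkB_SR (limma adjusted p = 0.995), lower in 5 of 5 lines. Being higher with IKKb than IkB_SR in 5 of 5 lines held for 4.51% of all genes, and lower with IkB_SR than MiG for 3.71%. Both counts share the IkB_SR arrays and are not independent.

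Among 11 tested ligands of inhibitory receptors, 2 were higher and 0 lower with IKKb. HLA-C, a class I molecule read by KIR receptors, lay at log2 0.48 ± 0.09 (limma adjusted p = 0.0327) and HLA-B at 0.60 ± 0.12 (0.0337), each higher in 5 of 5 lines. Both calls were lost when A549, H23, HCC827 or PC9 was left out (limma adjusted p from 0.0541 to 0.185). They were also lost without the H358 IKKb array (0.0584 for HLA-C and 0.0691 for HLA-B) and without the H23 IkB_SR array (0.0638 for each), and their probe sets may also read other class I genes. The remaining lists held 0 calls. They were RAET1E and NECTIN2 as other ligands of NKG2D and DNAM-1 (2 tested of 4 listed), nectins and nectin-like molecules (6 of 7), genes of NKG2D ligand shedding (8 of 8), and regulators of NKG2D ligand transcription (15 of 16). Medians were 0.18, 0.12, -0.04 and 0.04 in that order, and -0.01 over all genes tested. Among shedding genes the proteases ADAM10 and ADAM17, which cut MICA and MICB from the cell surface, lay at -0.02 ± 0.07 and 0.01 ± 0.06 (limma adjusted p = 0.912 and 0.965). MMP9, a secreted protease picked out after its values were seen, lay at 2.43 ± 0.66 (limma adjusted p = 0.109). In the comparisons with MiG all lists held 0 calls.

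**Figure D4:**
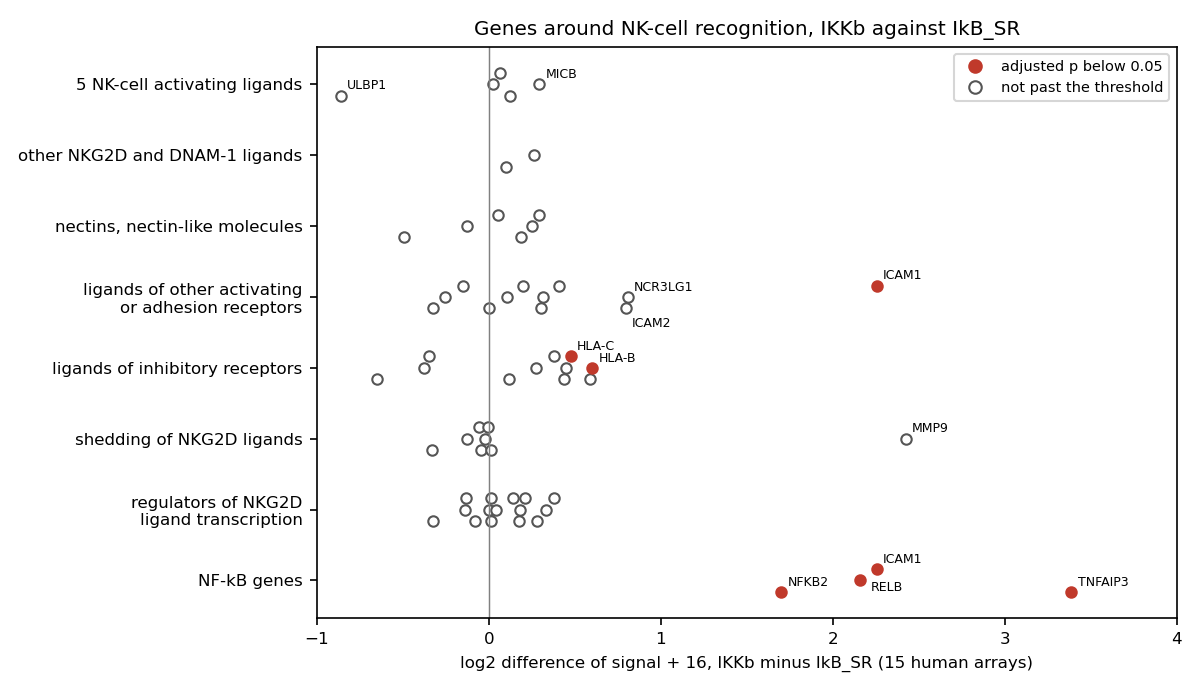
Log2 difference of signal plus 16, IKKb minus IkB_SR, for each tested gene of the 7 lists and of the NF-kB genes; filled points passed the limma adjusted threshold of 0.05. The ligands lie between -0.86 and 0.29, with 0 of 5 past the threshold, while ICAM1 lies at 2.26 and TNFAIP3, an NF-kB target, at 3.39.

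In LLC, IKKb was compared with MiG on 2 arrays each. The labels do not say that same-group arrays came from separate cultures, so p-values here measure the spread between these arrays. The 40th percentile lay between 30.1 and 39.6. The brightest Pvr probe set, 1451160_s_at, read 581 and 428 with IKKb, against 536 and 517 with MiG, so the MiG values lie between the IKKb ones. Its log2 difference was -0.08 ± 0.23 (95% interval -0.62 to 0.46, limma adjusted p = 0.9997). The other 6 Pvr probe sets lay between 0.07 and 0.33. On 1423903_at the signals were 379 and 338 with IKKb, against 335 and 235 with MiG, the only Pvr probe set on which the groups did not overlap, by a narrow margin.

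Ulbp1, whose mouse product MULT1 binds NKG2D, read 64.8 and 23.1 with IKKb, against 48.8 and 25.0 with MiG. It was above the 40th percentile on 2 of 4 arrays, both numbered 1, and its log2 difference was 0.12 ± 0.51 (95% interval -1.10 to 1.34, limma adjusted p = 0.9997). The probe set that names Raet1e and Raet1d, which encode RAE-1 ligands of NKG2D, read 876 and 723 with IKKb, against 917 and 870.3 with MiG. It was not tested because it names more than 1 gene. H60c, another mouse NKG2D ligand, read 61.1 and 71.5 with IKKb, against 35.2 and 47.5 with MiG, without overlap, at log2 0.53 ± 0.36 (95% interval -0.35 to 1.40, limma adjusted p = 0.9997). Of Pvr and Ulbp1, 0 of 2 passed, against 0% of all genes tested (0 of 12549). At an unadjusted p below 0.05 there were 0 of 2, against 1.9% of all genes (238). With the replicate number as a block there were again 0 of 2 past the adjusted threshold, against 1.78% of all genes (223). In the fit with that block Relb, Nfkb2 and Tnfaip3 among 4 tested NF-kB genes passed as higher with IKKb, as did Clec2d among 7 tested ligands of inhibitory receptors and Mmp9 among 8 shedding genes, while Krt19 among 4 tested epithelial genes passed as lower. The summed signal of 6 epithelial genes in LLC was 9462 and 9888 with IKKb, against 14523 and 12117 with MiG. That of 8 fibroblast and endothelial genes was 11387 and 10102 with IKKb, against 20297 and 10788 with MiG. The part of these signals in the ligand values was not tested. In the fit without the block 0 genes of these lists passed. The Dap spike-in split the LLC arrays by number, at 1567 with IKKb and 1679 with MiG for number 1, against 19.4 with IKKb and 28.7 with MiG for number 2.

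**Figure D5:**
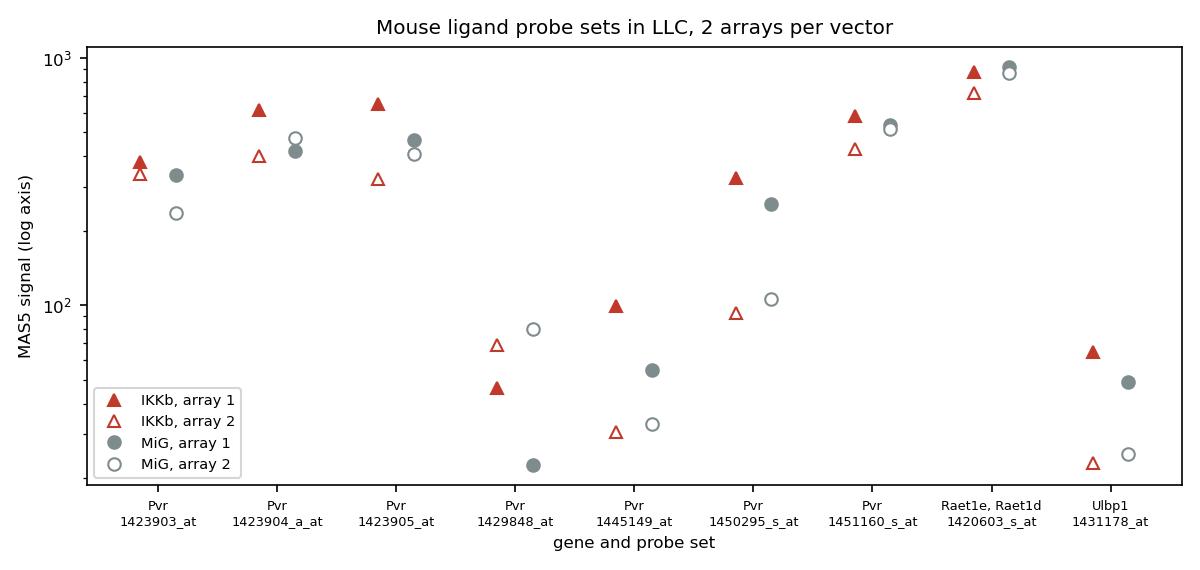
MAS5 signal (log axis) of the mouse ligand probe sets in LLC, with 2 IKKb arrays (triangles) left of 2 MiG arrays (circles) and filled symbols for number 1. IKKb and MiG points interleave on 1451160_s_at of Pvr (581 and 428 against 536 and 517) and on Ulbp1, and stand apart on 1423903_at.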

How the data were processed

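Per the labels, biotin-labelled cRNA of sorted cells was hybridised to 1 array per sample. The files hold a linear intensity for each probe set, which the authors computed with GCOS 1.4 and MAS5, per the submitters' processing notes. Each array had a mean of 500 without its lowest and highest 2%, and scaling to a common mean removes differences in total RNA. Detection calls were not used here.

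A constant of 16 was added to each signal before log2. Tests used probe sets that name 1 gene (41097 human, 34958 mouse), the brightest standing for the gene, with genes above the 40th percentile of their array in 5 or more of the human arrays, or 2 or more of the mouse arrays (15212 and 12549 genes). Limma 3.58.1 in R 4.3.3 (lmFit, eBayes with an intensity trend, two-sided) fitted the 15 human arrays with cell line as block, since same-numbered arrays are the same line, and the 4 LLC arrays without a block, with Benjamini-Hochberg adjustment over all genes and a threshold of 0.05. The human lines were compared with an F-test in the same fit. The fit was tested on simulated data with known changes. Intervals are 95%.

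All ligands were to be named, up to 4 genes past the threshold from each list, and the 3 genes most alike. The members and lists were chosen with earlier results of these data known. Alternatives covered the constant, normalisation, filter, probe sets, prior, block and left-out arrays. Fitting every probe set was added after seeing the data. Some listed genes were not analysed here. Sequences and motif counts come from RefSeq windows on GRCh38.p14. Figures were drawn with matplotlib 3.10.9.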

Additional observations from a re-analysis of the deposited data

Results flagged for a closer look

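Dixon's test for 1 value far from the rest was run on 36 groups of 5 values, and 5 groups passed its 95% critical value. Chance passes about 1 in 20 independent groups. The groups of a gene share lines and arrays, so the count cannot be set against that rate. MICB was low in A549 with each vector, with a log2 gap to the next line of 0.755 of the whole range with IKKb, 0.799 with IkB_SR and 0.82 with MiG. The log2 difference of MICB between IkB_SR and MiG was low in PC9, at -0.44, with a gap of 0.808 of the range. ULBP3 was high in A549 among the 5 MiG arrays, with a gap of 0.778 of the range, but its signal there, 20.9, lay below the 40th percentile of that array.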

How the results depend on the processing

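Of 321 alternative values for the ligands in the vector comparisons, 296 kept the direction and 25 turned it, and 0 passed the threshold (smallest limma adjusted p 0.0691, MICB between IKKb and IkB_SR without the H358 IKKb array). For differences among lines 82 of 86 values kept the call, and those lost were ULBP1 3 times and PVR on 239918_at. Between IKKb and IkB_SR, MICA turned to -0.0049 without the H23 IkB_SR array and ranged from -0.033 to 0.084 with 1 line left out. ULBP2 turned to -0.015 with the mean of probe sets and -0.095 on 221291_at. PVR turned to -0.060 with the mean of probe sets, -0.0033 on 1556582_at, -0.17 on 214444_s_at, -0.24 on 216283_s_at and -0.44 on 239918_at. Between IKKb and MiG, with 1 line left out MICA ranged from -0.13 to 0.0096 and PVR from -0.038 to 0.33, and PVR turned to -0.050 on 1556582_at. Between IkB_SR and MiG, PVR ranged from -0.12 to 0.14 with 1 line left out and turned to -0.046 on 1556582_at and -0.10 on 214443_at. In LLC, Pvr turned to 0.16 with the mean of probe sets, to 0.33 on 1423903_at, 0.15 on 1423904_a_at, 0.073 on 1423905_at, 0.25 on 1429848_at, 0.32 on 1445149_at and 0.088 on 1450295_s_at. With 1 array left out Pvr ranged from -0.29 to 0.14 and Ulbp1 from -0.40 to 0.65. The cause was not tested in these cases.

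All genes past the threshold numbered 0 to 149 between IKKb and IkB_SR (142 as reported, 0 with no replicate block), 0 to 1 between IKKb and MiG, 0 to 8 between IkB_SR and MiG, 11153 to 14241 among lines, and 0 to 223 in LLC. The 223 came from the LLC fit with the replicate number as block (1.78% of 12549), in which 0 of 2 ligands passed, with Pvr at -0.08 ± 0.14 (limma adjusted p = 0.924) and Ulbp1 at 0.12 ± 0.38 (0.959). The deviations of same-numbered LLC arrays correlated at 0.53, a single value, and what the numbers mark is not in the labels. Dim signals limit ULBP1, ULBP3 and mouse Ulbp1.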

Other observations

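MICA-AS1, an antisense transcript of the MICA locus, followed another order of lines than MICA. Its signals in H358 were 275 with IKKb, 222 with IkB_SR and 263 with MiG, and in A549 127 with IKKb, 121 with IkB_SR and 121 with MiG. In PC9 they were 9.05 with IKKb, 27.1 with IkB_SR and 6.61 with MiG, all below the 40th percentile of their arrays. RAET1E, a further NKG2D ligand, was brightest in H358 (162 ± 37.9) and A549 (134 ± 16.7), whose ranges overlapped (SD, n = 3 arrays each). It lay at 8.68 ± 7.90 in H23 and 9.62 ± 9.31 in PC9, below the 40th percentile on every array of these lines. RAET1E was above that mark on 8 of the 15 human arrays. NECTIN2, the other ligand of DNAM-1, was lowest in HCC827, at 558 with IKKb, 494 with IkB_SR and 533 with MiG, while its signals in the other 4 lines ran from 938 to 1488.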
